A study of Mus musculus with 7 samples.

Results

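Complex I (NADH:ubiquinone oxidoreductase) genes were followed in RNA from the abdominal aorta, taking each row of the gene count table whose name begins with Nduf and whose counts sum to 10 or more. This gave 45 of 21878 genes, and 45 of the 45 also passed the filter on low counts that left 14609 genes for testing. By name they fell into 11 genes of the Ndufs and Ndufv series, 27 of the Ndufa, Ndufb and Ndufc series and 7 assembly factors (Ndufaf). All 7 libraries came from male C57BL/6 mice, given in the labels as 8 weeks of age and treated with angiotensin II (Ang II), a pressor peptide, for at most 28 days. The labels give the genotype ApoE-/- to 3 libraries (ApoE1 to ApoE3) and ApoE-/-Nur77-/- to 4 (DKO1 to DKO4), so the labelled loss of the apolipoprotein Apoe is common to both groups and the loss of the nuclear receptor Nur77 (gene Nr4a1) is the labelled difference. No group without Ang II or with intact Apoe was analysed here. The day of sampling of a library is not in the labels, nor is it said there whether libraries stand for different mice, and p-values therefore measure the spread between these libraries, which may be technical.

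Complex I is the enzyme through which most electrons from NADH enter the mitochondrial respiratory chain. It passes them to ubiquinone and uses the released energy to pump protons across the inner membrane. Its peripheral arm holds an N module, which oxidises NADH at a flavin, and a Q module, which reduces ubiquinone. Its membrane arm is described here as a proximal part, next to the Q module, and a distal part. A conserved core does the catalysis, accessory (supernumerary) subunits surround it, and assembly factors help to build the complex without remaining in it. The core subunits of the membrane arm are encoded by mitochondrial DNA and were not analysed here. The name series do not follow these roles exactly. Ndufs4, Ndufs5, Ndufs6 and Ndufv3 are supernumerary, Ndufa4 encodes a subunit of cytochrome c oxidase, and Ndufa4l2 encodes its hypoxia-induced relative. Tissues that burn much fat or contract without pause, such as brown fat and heart, are rich in the complex.

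Gene counts summed to 19295287 to 21727192 per library, and a member had between 64 counts (Ndufaf6 in DKO2) and 5796 counts (Ndufb8 in ApoE3). In RNA, neither gene named in the genotypes followed its label. Gene counts do not show whether a transcript is intact, so the genotypes themselves were not tested. Nr4a1 was at 193, 56.4 and 111 CPM in ApoE1, ApoE2 and ApoE3 and at 46.2, 57, 90.1 and 92.7 CPM in DKO1 to DKO4 (edgeR log2 fold change -0.75, SE 0.42, adjusted p = 0.360). Apoe was at 233, 250.3 and 184 CPM against 34.7, 18.3, 33.8 and 28.1 CPM (edgeR log2 fold change -2.95, SE 0.23, adjusted p = 0.0227), although the labels give it as lost in both groups. Directions below are therefore those of the libraries labelled DKO against the libraries labelled ApoE. CPM are counts scaled to a common library size with TMM factors, and log2 fold changes come from edgeR's quasi-likelihood fit over all tested genes, negative where the libraries labelled DKO were lower.

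Transcripts of complex I subunits were lower in the libraries labelled DKO, in every module of the complex, without passing the threshold of 0.05 after adjustment over all genes. Of the 45 members, 44 had a negative log2 fold change (52.6% of all genes tested did), and the median was -0.72 against -0.02 for all genes. At adjusted p under 0.05 edgeR called 0 members lower and 0 higher, with adjusted p from 0.149 to 0.959. Over all genes it called 0.0274% lower and 0.0% higher. At an unadjusted p under 0.05, 38 members were lower and 0 higher, beside 11.8% and 8.0% of all genes. Other tools called more: DESeq2's Wald test called 27 members lower and 0 higher, beside 4.96% and 3.35% of all genes with an adjusted p. With limma voom and weights for sample quality the calls were 37 members lower and 0 higher, beside 10% and 6.17%. These weights were 2.43, 0.675 and 0.673 for ApoE1 to ApoE3 and 0.874, 0.909, 2.81 and 0.406 for DKO1 to DKO4. The voom calls thus rest most on ApoE1 and DKO3 and least on DKO4. The groups did not overlap for 15 members lower and 0 higher, beside 9.24% and 7.08% of all genes. The number lower without overlap was 39 without ApoE2 (19.1% of all genes) and 39 without DKO4 (20.2%), the library of each group that lay nearest the other group. In bulk tissue, fewer cells of a type and less RNA per cell cannot be told apart.

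**Figure D1:**
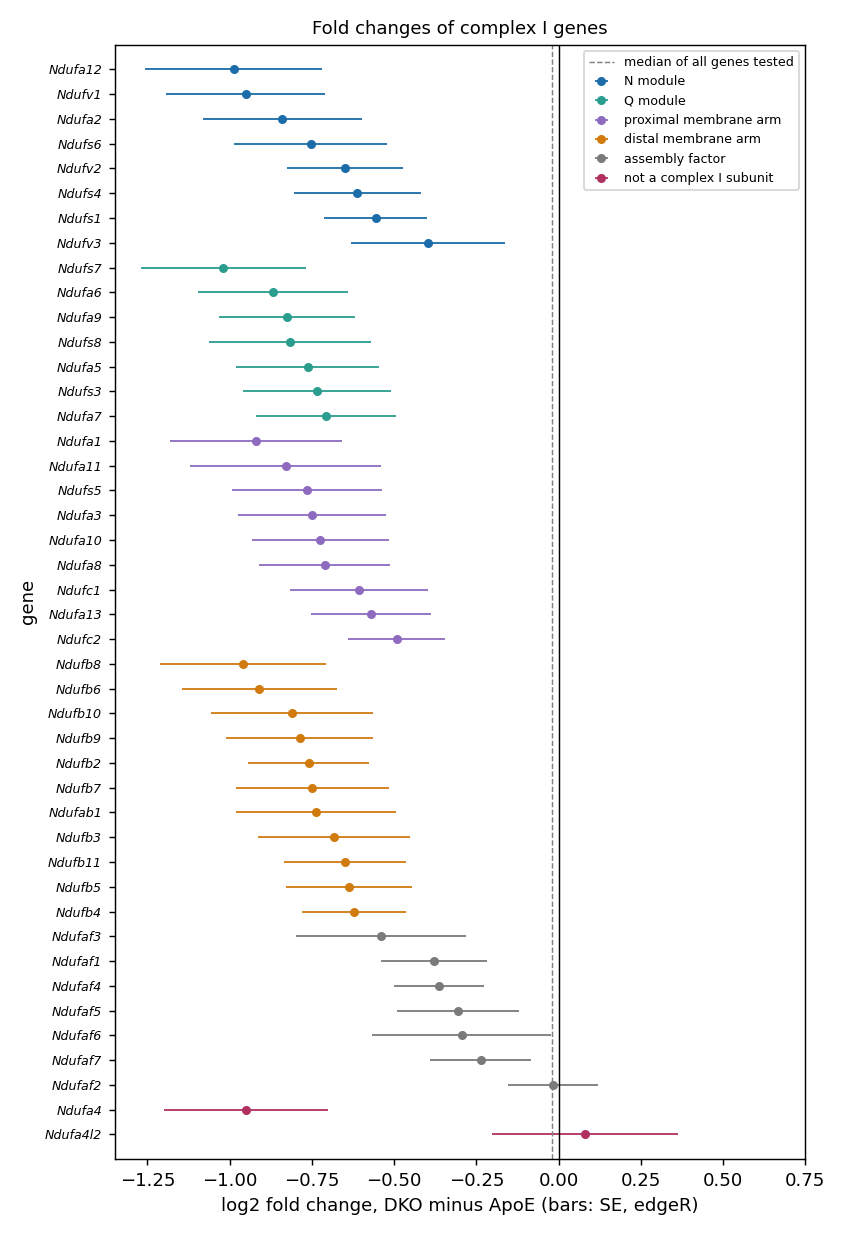
Log2 fold change of 44 of the genes (libraries labelled DKO minus libraries labelled ApoE; bars, SE from edgeR; 3 against 4 libraries), coloured by module. The 35 subunits plotted lie between -1.02 and -0.40, the 7 assembly factors between -0.54 and -0.02, and Ndufa4l2 is the only gene above 0.

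The 7 nuclear core subunits carry the redox centres and the quinone site. Of these, 7 of 7 were lower at an unadjusted p under 0.05 (11.8% of all genes), with a median log2 fold change of -0.73. Ndufs7, which holds the last iron-sulfur cluster before ubiquinone (chromosome 10, 80249105 to 80256794, GRCm38.p6), had the lowest fold change of all members. It was at 97.7, 73.2 and 143 CPM in ApoE1, ApoE2 and ApoE3 and at 47, 43.4, 47.4 and 68.8 CPM in DKO1 to DKO4 (edgeR log2 fold change -1.02, SE 0.25, adjusted p = 0.153). The highest library labelled DKO, DKO4, lay just under the lowest labelled ApoE, ApoE2, so the groups did not overlap. Ndufv1, the subunit that binds NADH and the flavin (chromosome 19, 4007499 to 4012755), was at 177, 130.2 and 257 CPM against 95.1, 84.5, 84.9 and 125 CPM (edgeR log2 fold change -0.95, SE 0.24, adjusted p = 0.156). Its neighbour in the N module, Ndufv2, was at 136, 108 and 177 CPM against 89.8, 80.1, 82 and 106 CPM (edgeR log2 fold change -0.65, SE 0.18, adjusted p = 0.158). Ndufs1, the largest core subunit of the N module, was at 127, 105 and 167 CPM against 90.7, 92.2, 81.7 and 97.3 CPM (edgeR log2 fold change -0.56, SE 0.16, adjusted p = 0.159). These 3 genes of the N module also had groups without overlap (9.24% of all genes were lower without overlap).

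Ndufs3 and Ndufs8 are also core subunits of the Q module. Ndufs8, an iron-sulfur protein, was at 101, 84.4 and 158 CPM against 57.6, 56.4, 59.5 and 87.1 CPM (edgeR log2 fold change -0.82, SE 0.25, adjusted p = 0.166). Ndufs3 was at 102, 75.5 and 133 CPM against 57.2, 52.7, 56.1 and 82.5 CPM (edgeR log2 fold change -0.73, SE 0.23, adjusted p = 0.167). In both genes DKO4 lay above ApoE2, while DKO1, DKO2 and DKO3 lay below every library labelled ApoE.

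Among the 4 supernumerary subunits that share the Ndufs and Ndufv names, 3 were lower at an unadjusted p under 0.05 (11.8% of all genes). The groups overlapped in all 4. Ndufs5, a cysteine-rich subunit of the proximal membrane arm, was at 86.1, 63.8 and 117 CPM against 49.4, 51, 41.9 and 66.7 CPM (edgeR log2 fold change -0.77, SE 0.23, adjusted p = 0.163). Ndufs6, a zinc-binding subunit of the N module, was at 68.4, 54.6 and 96.5 CPM against 40.3, 38.6, 36.4 and 58.3 CPM (edgeR log2 fold change -0.75, SE 0.23, adjusted p = 0.167), and Ndufs4, whose loss in mice causes a Leigh-like brain disease, at 59.7, 46.2 and 80.9 CPM against 40.7, 36.9, 37 and 48.3 CPM (edgeR log2 fold change -0.61, SE 0.19, adjusted p = 0.170). In all 3, the library DKO4 was the one that reached into the range of the libraries labelled ApoE. Ndufv3 had the fold change nearest 0 of the 36 subunits, at 124, 90.9 and 142 CPM against 67.3, 88.6, 79.7 and 125 CPM (edgeR log2 fold change -0.40, SE 0.23, adjusted p = 0.380). DKO4 held slightly more Ndufv3 than ApoE1, and DKO2 held nearly as much as ApoE2.

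Of 25 accessory subunits in the Ndufa, Ndufb and Ndufc series, 25 were lower at an unadjusted p under 0.05 (11.8% of all genes). Their median log2 fold change was -0.75. Ndufa12, which sits on the N module near its joint with the Q module, had the lowest fold change of these (chromosome 10, 94199035 to 94221440): 82.1, 62.7 and 111 CPM against 42.6, 36.1, 31.7 and 61.7 CPM (edgeR log2 fold change -0.99, SE 0.27, adjusted p = 0.158). The groups did not overlap, although DKO4 came within about 1 CPM of ApoE2. Ndufb8, a subunit of the distal membrane arm that is a common blotting marker of assembled complex I, was at 204, 158 and 316 CPM against 111, 104, 98.9 and 152 CPM (edgeR log2 fold change -0.96, SE 0.25, adjusted p = 0.157). The X-linked gene Ndufa1, a small subunit of the proximal membrane arm, was at 102, 71.7 and 151 CPM against 53.1, 48.8, 51.8 and 75.3 CPM (edgeR log2 fold change -0.92, SE 0.26, adjusted p = 0.160), with DKO4 above ApoE2. At the other end, Ndufa13, also known as the cell death regulator GRIM-19, was at 160.0, 142 and 200.3 CPM against 92.9, 102, 110.4 and 146 CPM (edgeR log2 fold change -0.57, SE 0.18, adjusted p = 0.173). Ndufc2 was at 72.3, 51.8 and 72.1 CPM against 45.6, 42.7, 43.4 and 54.4 CPM (edgeR log2 fold change -0.49, SE 0.15, adjusted p = 0.163), and was the only subunit whose highest library was not ApoE3 but ApoE1. Ndufab1, the mitochondrial acyl carrier protein, which also serves fatty acid and lipoic acid synthesis, was at 104, 75.8 and 147 CPM against 59, 58.5, 57.6 and 86.6 CPM (edgeR log2 fold change -0.74, SE 0.24, adjusted p = 0.179). The remaining 19 members of these series had fold changes from -0.91 (Ndufb6) to -0.61 (Ndufc1) and edgeR adjusted p from 0.149 to 0.191. Of them, 7 had groups without overlap (9.24% of all genes were lower without overlap). These were Ndufa6 and Ndufa9 of the Q module, Ndufa8 and Ndufa10 of the proximal arm, and Ndufb2, Ndufb4 and Ndufb6 of the distal arm. Mean levels of the 19 ran from 43.5 to 180.2 CPM in the libraries labelled ApoE and from 27.7 to 104 CPM in those labelled DKO. Ndufb2 had the lowest adjusted p of all members (edgeR log2 fold change -0.76, adjusted p = 0.149).

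Fold changes were negative in each structural module. Median log2 fold changes were -0.70 for the 8 genes of the N module, -0.79 for the 8 of the Q module, -0.72 for the 9 of the proximal membrane arm and -0.75 for the 11 of the distal membrane arm. At an unadjusted p under 0.05, 7 of 8, 8 of 8, 9 of 9 and 11 of 11 of them were lower. Of all genes, 11.8% were lower at that threshold. Without ApoE3 the 4 medians were -0.48, -0.54, -0.48 and -0.50.

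Nearly all members shared the highest library and the highest of those labelled DKO, but not the full order. ApoE3 was the highest library for 42 of the 45 members, and DKO4 was the highest of those labelled DKO for 42. The lowest library was DKO3 for 17 members, DKO2 for 15, DKO1 for 11 and DKO4 for 2. DKO1, DKO2 and DKO3 lay below every library labelled ApoE in 39 members, among them 35 of the 36 subunits, Ndufc1 being the subunit where they did not. DKO4 exceeded ApoE2 in 27 members, and in 15 the libraries ApoE3, ApoE1 and ApoE2 were the highest, in that order. Members took 0.419%, 0.348% and 0.569% of all counts in ApoE1, ApoE2 and ApoE3, and 0.269%, 0.256%, 0.255% and 0.338% in DKO1 to DKO4. Once the level that the 36 subunits share in a library was removed, single subunits varied over the 7 libraries with an SD of 0.0451 (Ndufa8) to 0.230 (Ndufv3) on the log2 scale. Before that step the SD was 0.456 for Ndufa8 and 0.395 for Ndufv3. After Ndufv3, Ndufa12 (0.201) and Ndufc2 (0.196) followed the shared level least closely.

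**Figure D2:**
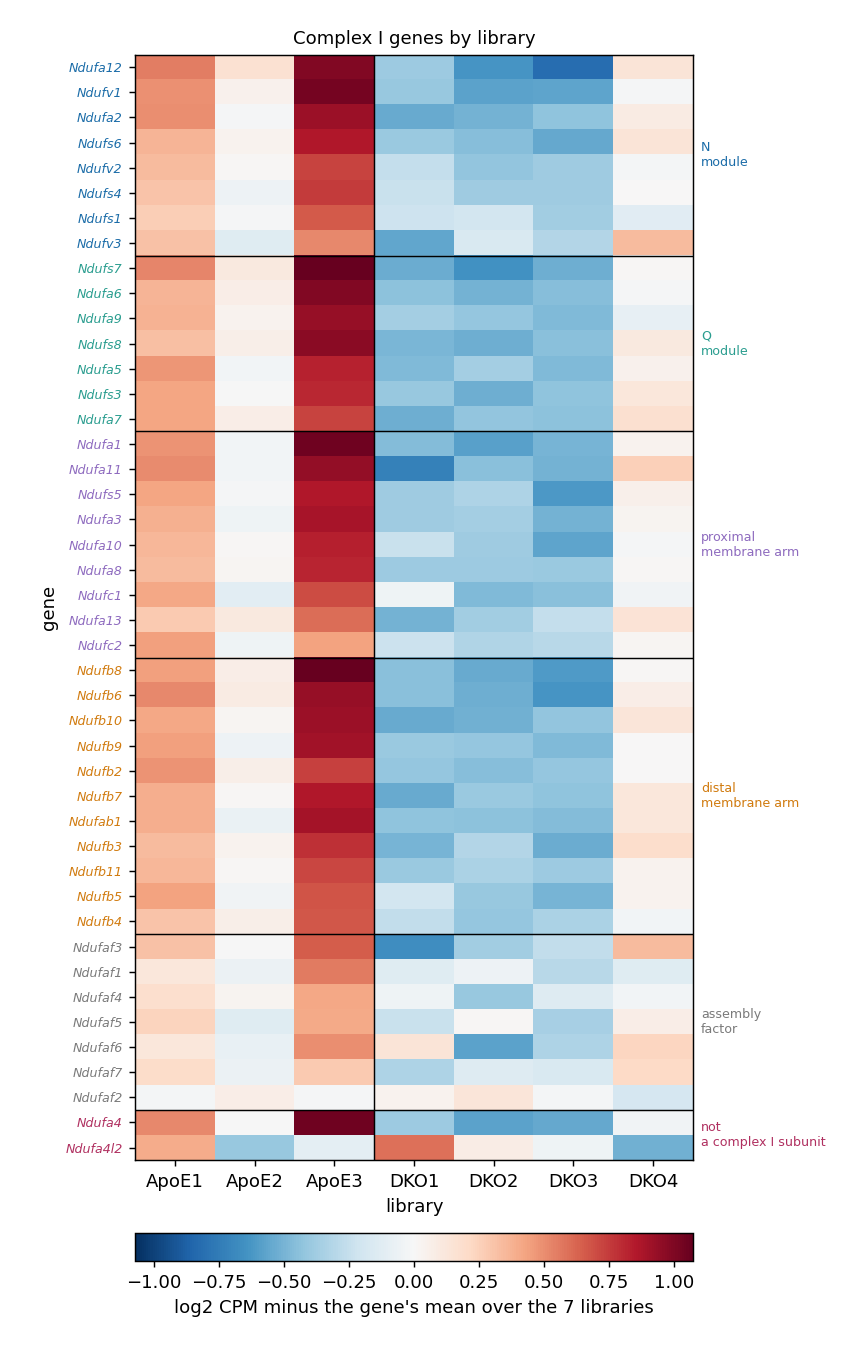
Log2 CPM of 44 of the genes (rows, grouped by module and ordered by fold change within it) in the 7 libraries (columns), each minus the gene's mean over the libraries. ApoE3 is the reddest column, DKO1 to DKO3 are blue for nearly all subunits, and ApoE2 and DKO4 lie close to each other near 0. The assembly factors and Ndufa4l2 are paler or differ in pattern.

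Fold changes of the assembly factors lay nearer 0 than those of most subunits. Of 7 Ndufaf genes, 7 had a negative fold change (median -0.31), and 2 were lower at an unadjusted p under 0.05 in edgeR (11.8% of all genes). That number was 1 with RLE, upper quartile or library total scaling and with DESeq2. Ndufaf1, a partner of the membrane arm intermediate also called CIA30, was at 16.6, 14.6 and 22.4 CPM against 13.9, 14.7, 12.4 and 13.9 CPM (edgeR log2 fold change -0.38, SE 0.16, adjusted p = 0.250). Ndufaf4, which acts on the Q module intermediate, was at 25.1, 22.5 and 29.5 CPM against 21.4, 16.6, 20.1 and 21.7 CPM (edgeR log2 fold change -0.36, SE 0.14, adjusted p = 0.210), and was the only assembly factor whose groups did not overlap. Its partner Ndufaf3 was at 22.3, 17.9 and 28.2 CPM against 11.3, 13.8, 14.9 and 22.7 CPM (edgeR log2 fold change -0.54, SE 0.26, adjusted p = 0.293), with DKO4 slightly above ApoE1. Ndufaf2, a chaperone that is related to Ndufa12 and precedes it on the assembling complex, was nearly level in the 7 libraries, at 8.88, 9.42 and 8.89 CPM against 9.24, 9.84, 8.84 and 7.93 CPM (edgeR log2 fold change -0.02, SE 0.14, adjusted p = 0.959). Its fold change ranged from -0.05 to 0.04 when 1 library was left out and was above 0 under the 3 other scalings tried.

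The other assembly factors had groups that overlapped. Ndufaf5, a hydroxylase of the core subunit Ndufs7, was at 10.9, 8.41 and 12.2 CPM against 7.80, 9.28, 7.19 and 9.66 CPM (edgeR log2 fold change -0.31, SE 0.19, adjusted p = 0.390). Ndufaf7, a methyltransferase, was at 25.9, 21.6 and 27.5 CPM against 18, 20.5, 20.2 and 26.3 CPM (edgeR log2 fold change -0.24, SE 0.15, adjusted p = 0.420). Ndufaf6 was the lowest member in level, at 4.86, 4.23 and 6.33 CPM against 4.93, 3.0, 3.55 and 5.27 CPM (edgeR log2 fold change -0.29, SE 0.27, adjusted p = 0.575). In Ndufaf7, DKO1, DKO2 and DKO3 lay below every library labelled ApoE and DKO4 above ApoE2, while in Ndufaf5 and Ndufaf6 libraries of both labels were mixed. Without ApoE3 the median of the 7 was -0.18 and 0 were lower at an unadjusted p under 0.05 (6.32% of all genes).

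Assembly factors under other names had a similar median. Of 10 tested, 10 had a negative fold change (median -0.36) and 6 were lower at an unadjusted p under 0.05 (11.8% of all genes). After adjustment edgeR called 0 of them, DESeq2 2 and limma voom 5 lower, beside 0.0274%, 4.96% and 10% of all genes. The lowest was Ecsit, a member of the membrane arm assembly complex that also acts in Toll-like receptor signalling, at 37.1, 32 and 55 CPM against 23, 22.9, 19.4 and 33.8 CPM (edgeR log2 fold change -0.74, SE 0.24, adjusted p = 0.178). The highest was its partner Tmem126b, at 10.3, 11.3 and 11 CPM against 10.6, 11.6, 10.2 and 8.59 CPM (edgeR log2 fold change -0.08, SE 0.14, adjusted p = 0.795). Within each library the mean log2 CPM of the 36 subunits exceeded that of the 7 Ndufaf genes by 2.88, 2.69 and 3.07 in ApoE1, ApoE2 and ApoE3 and by 2.42, 2.41, 2.40 and 2.63 in DKO1 to DKO4. This gap did not overlap between groups, so the subunits differed more between groups than the assembly factors did in these libraries. No p-value is given for it, since the lists were chosen with results of these data known.

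Ndufa4 and Ndufa4l2 carry the name without being complex I subunits, and they differed in pattern from each other. Ndufa4, of cytochrome c oxidase (chromosome 6, 11900372 to 11907450), was at 213, 149 and 308 CPM against 114, 100.4, 102 and 146 CPM (edgeR log2 fold change -0.95, SE 0.25, adjusted p = 0.157), with ApoE3 highest, DKO4 the highest of the libraries labelled DKO, and no overlap of the groups. Ndufa4l2 (chromosome 10, 127509274 to 127517154) was at 33.1, 19 and 23.5 CPM against 37.9, 26.6, 24.3 and 17.6 CPM (edgeR log2 fold change 0.08, SE 0.28, adjusted p = 0.905), with DKO1 highest and DKO4 lowest. Its fold change was -0.32 without ApoE2 and ApoE3 and -0.12 without DKO1, so its direction was not stable. Per length, Ndufa4 was at 396 ± 116 FPKM (SD, n = 3) against 226 ± 33.8 FPKM (SD, n = 4), and Ndufa4l2 at 18.4 ± 5.63 FPKM (SD, n = 3) against 20.2 ± 7.27 FPKM (SD, n = 4).

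Levels of different members were compared on the deposited FPKM, which are scaled for gene length. The median of the mean FPKM over the 7 libraries was 89.3 for the 36 subunits and 7.22 for the 7 assembly factors. Among subunits the highest level was that of Ndufa3, a small subunit of the proximal membrane arm, at 409.9 ± 83.6 FPKM (SD, n = 3) where the label was ApoE and 274 ± 36.1 FPKM (SD, n = 4) where it was DKO. The lowest was that of Ndufa11, at 28 ± 7.75 FPKM (SD, n = 3) and 16.8 ± 4.53 FPKM (SD, n = 4), and the 36 subunits spanned 15.4-fold in mean FPKM. The order of all 45 members has 44 neighbouring pairs. Of these, 3 had ranges over the 7 libraries that did not overlap (Ndufaf6 and Ndufaf5, Ndufaf5 and Ndufaf4, Ndufaf7 and Ndufaf3). The ranges were pooled over libraries, so an overlap does not show that 2 genes change order within a library. For example, Ndufa4 lay above its neighbour Ndufb9 in every library. The order of the other pairs within libraries was not tested. The 7 Ndufaf genes fill the lowest 7 places, from Ndufaf3 (17 FPKM) to Ndufaf6 (1.28 FPKM), below Ndufa4l2.

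**Figure D3:**
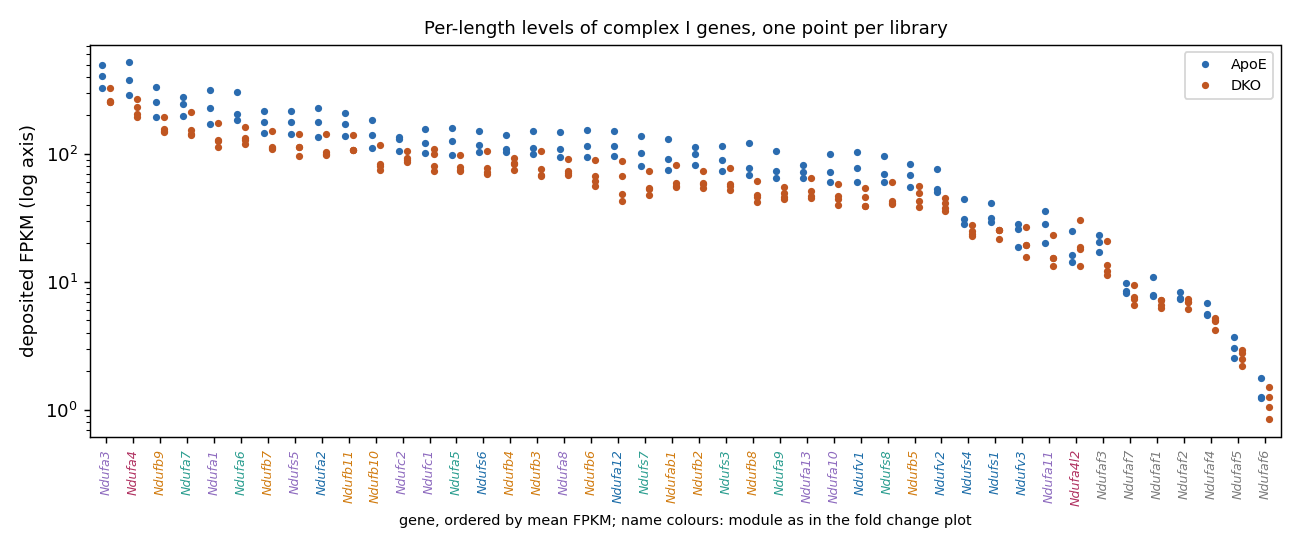
Deposited FPKM (log axis) of 44 of the genes in order of mean level, 1 point per library, with the libraries labelled ApoE at the left and those labelled DKO at the right of each gene. Ndufa3 and Ndufa4 head the order and the 7 Ndufaf genes end it.

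The other respiratory complexes had fold changes of a similar size. Subunits of complexes II to V (38 tested) had log2 fold changes with a median of -0.81, and 37 were lower at an unadjusted p under 0.05 (11.8% of all genes) and 20 without overlap of the groups (9.24%). After adjustment edgeR called 0 of the 38, DESeq2 29 and limma voom 36 lower, beside 0.0274%, 4.96% and 10% of all genes. By complex the medians were -0.72 for 4 subunits of complex II (succinate dehydrogenase), -0.95 for 9 of complex III, -0.88 for 10 of complex IV (cytochrome c oxidase) and -0.62 for 15 of complex V (ATP synthase). The mean log2 CPM of the 36 complex I subunits was 6.71, 6.32 and 7.14 in ApoE1, ApoE2 and ApoE3 and 5.91, 5.88, 5.85 and 6.37 in DKO1 to DKO4, with ApoE2 just below DKO4. For complexes II to V it was 7.71, 7.35 and 8.19 and 6.97, 6.91, 6.86 and 7.33. The ratio of complex I to the other complexes varied little between libraries: the difference of the 2 means was -1.0, -1.02 and -1.05 in the libraries labelled ApoE and -1.06, -1.03, -1.01 and -0.96 in those labelled DKO. The groups overlapped in this difference (-1.03 ± 0.0242 log2, SD, n = 3, against -1.02 ± 0.0419 log2, SD, n = 4).

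Mitochondrial ribosomal proteins, which translate the subunits encoded in the organelle, had fold changes nearer 0. Of 77 tested, 76 had a negative fold change (median -0.34; 52.6% of all genes were negative) and 39 were lower at an unadjusted p under 0.05 (11.8% of all genes). After adjustment edgeR called 0 of them, DESeq2 7 and limma voom 40 lower, beside 0.0274%, 4.96% and 10% of all genes. The mean log2 CPM of the complex I subunits exceeded theirs by 1.73, 1.54 and 1.96 in ApoE1, ApoE2 and ApoE3 and by 1.35, 1.28, 1.29 and 1.56 in DKO1 to DKO4, with DKO4 above ApoE2.

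**Figure D4:**
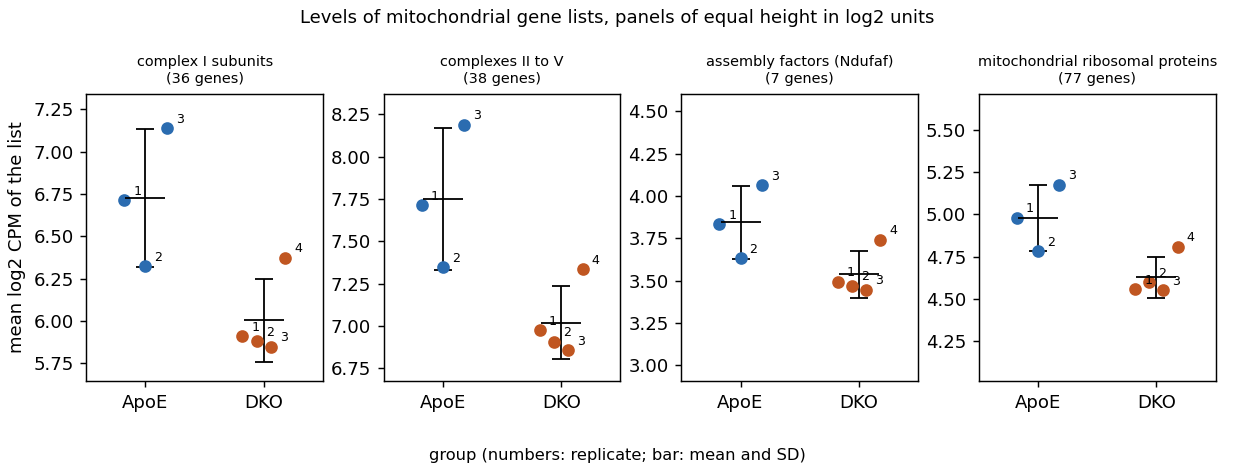
Mean log2 CPM of 4 gene lists in each library (points, numbered by replicate) with the group mean and SD (n = 3 and n = 4); panels have equal height in log2 units. ApoE3 is highest and DKO1 to DKO3 are lowest in each panel, and the distance between groups is wider for the respiratory complexes than for assembly factors and mitochondrial ribosomal proteins.

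Of 9 regulators of nuclear genes for mitochondria, 7 had a negative fold change and 2 a positive one (52.6% of all genes were negative). The coactivator Ppargc1a (PGC-1 alpha), which raises mitochondrial gene expression in brown fat and muscle, was at 8.18, 13.6 and 13.6 CPM against 4.79, 3.23, 4.48 and 4.70 CPM (edgeR log2 fold change -1.45, SE 0.24, adjusted p = 0.114), without overlap of the groups. Its partner, the orphan receptor Esrra, was at 53.6, 44.2 and 85.5 CPM against 42.3, 33.8, 36.9 and 43.1 CPM (edgeR log2 fold change -0.65, SE 0.22, adjusted p = 0.188), also without overlap. The DNA-binding factor Nrf1, at 22.3, 24.2 and 24.1 CPM against 21.6, 23.7, 23.6 and 22.7 CPM, differed by less than the spread between libraries (edgeR log2 fold change -0.04, SE 0.09, adjusted p = 0.836). The ETS factor Gabpa had a positive fold change, at 36.7, 42.8 and 43.5 CPM against 52.4, 47.6, 46.9 and 41.3 CPM (edgeR log2 fold change 0.20, SE 0.11, adjusted p = 0.350). Tfam, which maintains and transcribes mitochondrial DNA, was at 25.4, 22.8 and 26.3 CPM against 21.2, 23.1, 23.5 and 22.8 CPM (edgeR log2 fold change -0.14, SE 0.09, adjusted p = 0.441). Of the 9 regulators listed, 4 were lower at an unadjusted p under 0.05 and 0 higher, beside 11.8% and 8.0% of all genes. After adjustment edgeR called 0 of them, DESeq2 3 and limma voom 3 lower, beside 0.0274%, 4.96% and 10% of all genes.

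Promoters of the members were searched for motifs of such factors. RefSeq promoters on GRCm38.p6 (250 bases before to 50 after the start of transcription) were matched by gene identifier for 39 of the 45 members. The NRF1 motif, searched like the others on both strands, was in 9 of 39 (23.1%), beside 5.19% of the 27025 genes with a promoter in the same table. It was in 7 of 32 subunits and 2 of 6 assembly factors. The ETS motif CCGGAAGN was in 5 of 39 (9.9% of all genes), the YY1 motif in 4 of 39 (0.995%), and the ERR motif TCAAGGTCA in 0 of 39 (0.466%). Ndufs6 was the only member with matches to more than 1 of these motifs (NRF1 and YY1), and they lay apart. The genes compared were not limited to those tested and were not matched for expression or base composition. A match is not a measured binding site, and fold changes were not tested against matches. Stretches around 3 NRF1 matches that lie before the start and outside annotated exons are printed 5′ to 3′ on the strand of the gene, with the match in capitals, for a supernumerary subunit, an accessory subunit of the distal membrane arm and an assembly factor.
Ndufs5: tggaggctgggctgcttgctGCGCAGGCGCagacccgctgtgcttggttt
Ndufb4: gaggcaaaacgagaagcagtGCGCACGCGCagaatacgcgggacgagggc
Ndufaf4: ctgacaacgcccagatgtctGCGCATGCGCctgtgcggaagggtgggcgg
They lie at chr4:123718255-123718304 (minus strand), chr16:37654530-37654579 (minus strand) and chr4:24897950-24897999 (plus strand) on GRCm38.p6, and the matches begin 98, 191 and 113 bases before the start. The log2 fold changes of these genes were -0.77, -0.62 and -0.36, and their differences from each other were not tested.

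Summed fat markers and summed heart markers were highest in ApoE3 and, among the libraries labelled DKO, in DKO4, as complex I subunits were. Heart markers were higher in ApoE2 than in ApoE1, unlike the subunits and both fat lists. The full order of the libraries differed from that of the subunits in each of these lists. The summed level of the 36 subunits was 4041, 3110.0 and 5519 CPM in ApoE1, ApoE2 and ApoE3 and 2329, 2298, 2242 and 3213 CPM in DKO1 to DKO4. White adipocyte markers (12 of 12 tested) summed to 10026, 9444 and 13087 against 4923, 4576, 5019.9 and 7399.9 CPM, without overlap of the groups, and 12 had a negative fold change. Brown adipocyte markers (9 of 10 tested) summed to 1236, 789 and 2131 against 629, 389, 361 and 722 CPM, again without overlap of the sums, and 9 had a negative fold change. Taken singly, 10 of the 12 white and 5 of the 9 brown markers were lower without overlap (9.24% of all genes). Ucp1, the uncoupling protein that defines brown fat, was at 469, 242 and 796 CPM against 256, 105, 72.1 and 198 CPM. Its groups overlapped, and DKO1 rather than DKO4 was its highest library labelled DKO. In the sums of both fat lists ApoE3 was highest and DKO4 was the highest of the libraries labelled DKO, as for complex I. No marker of either fat list was at 0 in any library.

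Cardiomyocyte markers (9 of 12 tested) summed to 82.8, 437 and 1498 against 55.4, 77.8, 49.1 and 106 CPM, high in ApoE3 and next in ApoE2. Of the 9 tested, 9 had a negative fold change. The defining marker Myh6 was at 116 and 481 CPM in ApoE2 and ApoE3, at 1.34 CPM in ApoE1, and at 8.19, 4.88, 0.0888 and 0 CPM in DKO1 to DKO4. Of the 12 markers, 4 were at 0 in ApoE1, 0 in ApoE2 and ApoE3, and 1, 2, 4 and 6 in DKO1 to DKO4. ApoE1, whose cardiac markers summed to a value within the range of the libraries labelled DKO, lay above every library labelled DKO in 39 of the 45 members (26.0% of all genes did). With ApoE2 and ApoE3 both left out, the median fold change of the members was -0.66 and 29 were lower at an unadjusted p under 0.05 (5.61% of all genes were lower and 3.24% higher), in a fit where ApoE1 is assumed to vary like the others. With only ApoE3 left out the median was -0.48 and 26 were lower (6.32% of all genes were lower and 3.82% higher), so ApoE3 moved the median by over 1.5 times.

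The summed smooth muscle markers, which define the aortic wall, overlapped between the groups. The smooth muscle markers (6 of 6 tested) were abundant in every library, at 23452, 15041 and 19882 against 7924, 13131, 14322 and 28719.6 CPM, highest in DKO4 and lowest in DKO1. Of the 6, 6 had a negative fold change (median -0.24), and 0 were lower without overlap (9.24% of all genes). Skeletal muscle markers (11 of 11 tested) summed to 29.8, 19.7 and 128 against 89, 10.3, 45.5 and 16.7 CPM and macrophage markers (6 of 6) to 2359, 2699.9 and 1770.3 against 3426, 2535, 4026 and 1876 CPM, both overlapping, and 2 skeletal muscle markers (Myh4 and Pvalb) were at 0 in DKO2. Of the 11 skeletal muscle markers 7 had a negative fold change, and of the 6 macrophage markers 0 did (median 0.38). Fibroblast markers (5 of 5) summed to 4638, 4400.5 and 4912 against 3959, 3245, 3913 and 2803 CPM, without overlap of the sums, although 3 of the 5 had a negative fold change and 2 did not. Endothelial markers (5 of 5) summed to 1034, 847 and 1061 against 1191, 879.5, 1009 and 946 CPM, overlapping, and 2 had a negative fold change. The part of fat, heart, muscle and fibroblast content in the complex I result was not tested.

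**Figure D5:**
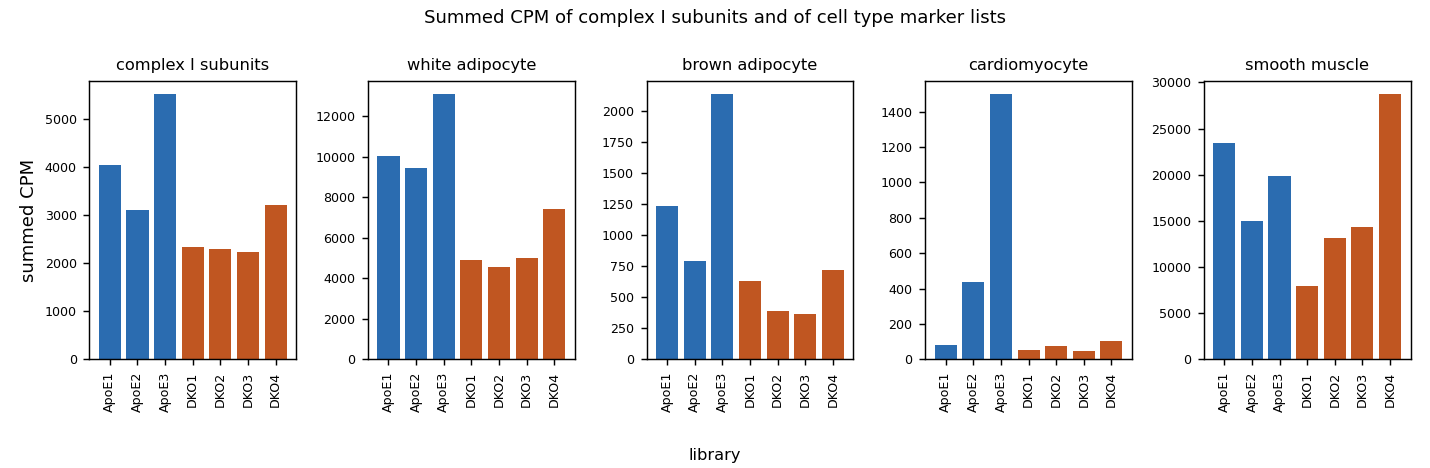
Summed CPM of the 36 complex I subunits and of 4 marker lists in each library (bars from 0; blue, labelled ApoE; orange, labelled DKO). White adipocyte, brown adipocyte and cardiomyocyte markers are highest in ApoE3 and, within the libraries labelled DKO, in DKO4, as complex I is. Cardiomyocyte markers are high only in ApoE2 and ApoE3, and smooth muscle markers are highest in DKO4.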

How the data were processed

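RNA was sequenced from stranded mRNA libraries (7 samples), per the labels' protocols. Trimmomatic, HISAT2, HTSeq, Cufflinks and DESeq and the build GRCm38.p6 are named without roles or versions, per the submitters' processing notes; for the counting, annotation, filters and strand setting were not given in the sources used here. The deposited gene counts are raw whole numbers. FPKM values were deposited too, scaled by the authors for gene length and depth. Column names gave the genotype and number of each sample.

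Counts were filtered (filterByExpr, minimum count 10), scaled by TMM and tested over all genes with edgeR 4.0.16 (quasi-likelihood, 3 against 4 libraries, Benjamini-Hochberg, threshold 0.05) in R 4.3.3. SEs were derived by dividing the fitted log2 change by the root of its F statistic. The level of a list is its mean log2 CPM, with a prior count of 2. Alternatives used limma 3.58.1, DESeq2 1.42.0, other scalings and filters, log2 FPKM with pseudocounts of 1 and 0.1, the replicate number as a block, and libraries left out. The edgeR test was tried on simulated counts with known changes. Motif letters were entered by hand as common consensus forms, not read from a motif database, and searched exactly, so counts of matches hold for those forms only.

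Of the members, 1 enters all counts and medians but is not reported here by itself. Members, lists, tests and alternatives were chosen with earlier results of these data known. Values per library are given for core subunits, Ndufs4, Ndufs5, Ndufs6, Ndufv3, the 4 lowest and 3 highest fold changes of the Ndufa, Ndufb and Ndufc series, Ndufab1, Ndufa4, Ndufa4l2 and each Ndufaf gene. Of the 45 members, 19 had exons that overlapped another gene in GENCODE M21, 16 of them only on the other strand; without a stated strand setting, reads of such pairs cannot be told apart.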

Additional observations from a re-analysis of the deposited data

Results flagged for a closer look

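In 13 of the 45 members 1 library stood apart from the others of the group of 4 labelled DKO, by a gap above Dixon's critical share of the group's range, and it was DKO4 on the high side in 13 of 13. Chance gives such a gap in about 1 in 20 groups of normally distributed values, and the members share their libraries, so these are not 13 separate events. The share of all genes in which DKO4 stood apart was not computed. The count therefore does not show whether DKO4 stood apart more often in these members than in other genes. The genes, with their level in DKO4, were Ndufa1 (75.3 CPM), Ndufa2 (79.5 CPM), Ndufa6 (106 CPM), Ndufa7 (105 CPM), Ndufa8 (85.3 CPM), Ndufab1 (86.6 CPM), Ndufb10 (129 CPM), Ndufb11 (122 CPM), Ndufb2 (34.3 CPM), Ndufb9 (129 CPM), Ndufs3 (82.5 CPM), Ndufs7 (68.8 CPM) and Ndufs8 (87.1 CPM). The gap between the mean log2 CPM of the 36 subunits and of the 7 assembly factors stood apart in DKO4 in the same way, at 2.63. The 3 libraries labelled ApoE were not examined by this criterion.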

How the results depend on the processing

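The number of members called at adjusted p under 0.05 was 0 in edgeR and in 17 of 19 alternatives, and it was 27 with DESeq2 and 37 with limma voom. At an unadjusted p under 0.05 it was 38, and 26 to 40 when 1 library was left out. The number without overlap was 15 (9.24% of all genes were lower without overlap), and 28 with library totals only, where the share of all genes was not computed. It was 15 to 39 when 1 library was left out, with 39 without ApoE2 (19.1% of all genes) or without DKO4 (20.2%). Without ApoE2 and ApoE3 it was 39, which asks only that every library labelled DKO lie below ApoE1 (26.0% of all genes did). The median log2 fold change was negative in each of 20 alternatives (-0.90 to -0.48 when 1 library was left out). Replicate numbers were not taken to pair the libraries, since the deviations of same-numbered libraries correlated in 1 of 3 pairs (-0.39, 0.70 and 0.00363). The replicate block gave 0 called, 39 at an unadjusted p under 0.05 and a median of -0.84. Only DKO4 has the replicate number 4, so with the block its counts do not inform the fitted difference between groups. Without DKO4 and without a block the median was -0.88. The difference of complex I from complexes II to V between groups was 0.00856 log2, and -0.00932 to 0.0244 when 1 library was left out. Of 26 members given in full under 19 alternatives each, 2 changed sign. Ndufaf2 was at 0.011 with RLE size factors, 0.019 with upper quartile scaling, 0.044 with library totals, 0.011 with DESeq2, 0.0034 with voom, 0.037 with the block, and 0.013, 0.038 and 0.011 without ApoE2, without DKO4 and without both ApoE2 and ApoE3. Ndufa4l2 was at -0.11 with voom, -0.09 without ApoE2, -0.12 without DKO1 and -0.32 without both ApoE2 and ApoE3. Leaving out 1 library gave -0.047 to 0.038 for Ndufaf2 and -0.12 to 0.33 for Ndufa4l2. The cause of these differences was not tested. Ndufaf6 had the lowest counts of the members (64 to 116), which limits its precision.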
